A study of Mus musculus with 6 samples.

Results

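Transcripts of 8 genes of steroid hormone signalling were followed in mouse kidney, 3 of them encoding receptors that are folded by the HSP70 and HSP90 chaperones and 5 of them known targets of glucocorticoid action. They were picked by gene symbol and not by their values, though with earlier results of these data known. All 8 were found among the 34714 genes of the table. The receptors are the glucocorticoid receptor (Nr3c1), the mineralocorticoid receptor (Nr3c2) and oestrogen receptor alpha (Esr1). The targets are Fkbp5, Tsc22d3, Sgk1, Zbtb16 and Klf9. RNA came from kidney tissue of mice labelled Hspa8 knockout (3 libraries) and of mice labelled WT, with C57 in their titles (3 libraries). Both groups were 8 weeks old and ate normal chow, and no injection or drug is named for either. The strains obtained for the series included mice with a floxed Hspa8 allele and Cdh16-Cre mice, in which Cre is driven by a promoter of kidney tubule epithelium. The knockout labels name neither Cre, the floxed allele nor a strain background, so these may differ between the groups along with Hspa8. The libraries compare knockout with wild-type kidney, and the study as a whole asks how HSPA8, the chaperone HSC70, bears on SREBP activation in tubules.

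Steroid receptors reach their hormone-binding shape through a chaperone relay. HSC70 and its HSP40 partners take up the newly made receptor, and HSP90 with its co-chaperones then holds it ready for hormone. FKBP5 and FKBP4 are rival co-chaperones of that HSP90 complex. FKBP5 lowers hormone binding, and the activated glucocorticoid receptor induces Fkbp5, which closes a feedback loop. In the kidney the mineralocorticoid receptor acts in the distal nephron on sodium uptake, where HSD11B2 inactivates glucocorticoids that would otherwise occupy it. RNA levels report neither receptor folding nor hormone binding, which were not measured in these libraries.

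Promoters are shown first because several targets are known for glucocorticoid response elements. The consensus element is a palindrome, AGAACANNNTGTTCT, with arms AGAACA and TGTTCT, each the reverse complement of the other, so that a search for both covers both strands. RefSeq promoter windows (GRCm38.p6, 250 bases before and 50 from each annotated start) were at hand for 6 of the 8 genes, in 14 windows. The full palindrome occurred in 1 of these, a window of Sgk1, against 3 of 32851 windows of all genes (0.00913%). It lay from position -189 to -175 relative to that start and read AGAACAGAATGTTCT. At least 1 arm, which the palindrome also contains, was found in 4 of the 14 windows, 3 of Sgk1 and 1 of Tsc22d3, against 19.0% of all windows. In 33 windows of 26 further glucocorticoid targets, a list described below, the palindrome was in 0 and an arm in 5 (15.2%). The windows printed are that of Sgk1 with the palindrome, that of Tsc22d3 with an arm, and those of Fkbp5 and Klf9, which held neither. Sgk1 and Tsc22d3 shared their lowest and highest libraries, and Fkbp5 and Klf9 shared another pair, as given below. A link between these letters and the levels in the libraries was not tested. Capitals mark the arms and the palindrome with its spacer, and all are written 5′ to 3′ on the strand of the gene.
Sgk1 (chr10:21993640-21993939, plus strand): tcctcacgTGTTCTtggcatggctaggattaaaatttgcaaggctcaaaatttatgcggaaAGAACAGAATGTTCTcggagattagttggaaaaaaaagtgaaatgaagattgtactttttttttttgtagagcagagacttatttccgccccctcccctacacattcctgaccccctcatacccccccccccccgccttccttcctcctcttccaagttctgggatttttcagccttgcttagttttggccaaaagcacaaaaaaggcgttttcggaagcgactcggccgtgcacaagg
Tsc22d3 (chrX:140600473-140600772, minus strand): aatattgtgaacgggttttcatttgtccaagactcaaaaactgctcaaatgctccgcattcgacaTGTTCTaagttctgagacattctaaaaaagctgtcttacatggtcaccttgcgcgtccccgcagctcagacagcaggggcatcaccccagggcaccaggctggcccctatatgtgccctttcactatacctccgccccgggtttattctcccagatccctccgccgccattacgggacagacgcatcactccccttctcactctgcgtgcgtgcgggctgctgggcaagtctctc
Fkbp5 (chr17:28486100-28486399, minus strand): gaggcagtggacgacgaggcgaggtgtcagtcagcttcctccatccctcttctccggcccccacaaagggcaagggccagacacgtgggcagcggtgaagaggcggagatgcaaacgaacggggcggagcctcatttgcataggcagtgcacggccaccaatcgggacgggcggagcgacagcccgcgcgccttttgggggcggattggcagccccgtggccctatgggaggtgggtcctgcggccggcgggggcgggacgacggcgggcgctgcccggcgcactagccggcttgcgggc
Klf9 (chr19:23140976-23141275, plus strand): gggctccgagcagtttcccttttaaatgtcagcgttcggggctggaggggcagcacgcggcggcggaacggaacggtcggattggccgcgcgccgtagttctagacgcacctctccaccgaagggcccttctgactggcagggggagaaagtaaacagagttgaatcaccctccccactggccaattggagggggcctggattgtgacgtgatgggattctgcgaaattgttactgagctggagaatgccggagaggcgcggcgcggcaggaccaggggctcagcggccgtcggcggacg
A match of letters is not a site of binding, and the absence of a match says only that these letters are not in these windows. The oestrogen response element GGTCANNNTGACC, which is its own reverse complement, was in 0 of the 14 windows and in 0.0700% of all windows. FPKM are given per gene, so they do not show which of the 6 Sgk1 starts or the 3 Tsc22d3 starts was in use.

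**Figure D1:**
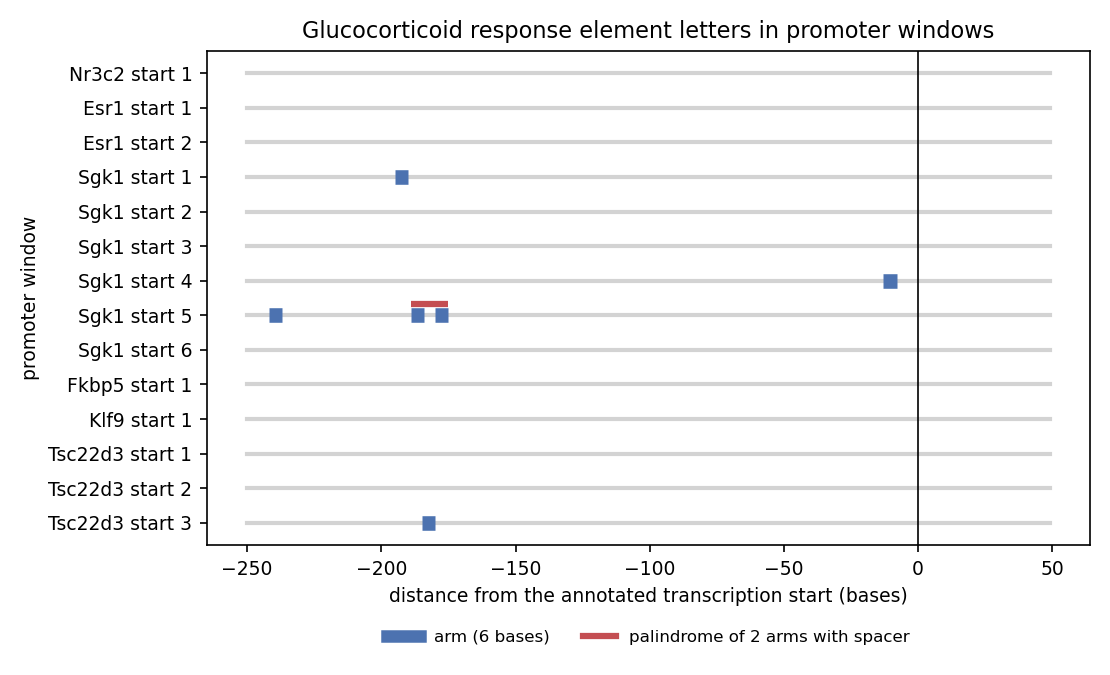
Matches to the glucocorticoid response element in the 14 promoter windows, each a grey line over the distance from the annotated start in bases, with the starts of a gene numbered along the chromosome. Blue blocks are single arms of 6 bases and the red bar is the palindrome of 15 bases, which only the fifth Sgk1 start had.

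Levels are FPKM, that is, fragment numbers divided by transcript length and by the mapped total of each library. They summed to 381586 to 416761 in knockout and 403895 to 417123 in wild-type libraries. The read totals are not kept in this unit and the depth behind a value is unknown, and low values such as those of Zbtb16 are the least precise. Hspa8, the gene named as deleted, had 650, 699 and 781 FPKM in knockout replicates 1, 2 and 3, against 1058, 1092 and 1318 FPKM in wild-type replicates 1, 2 and 3. Its groups did not overlap, and the fold change was 0.616. Markers of the labelled tissue were present, with the proximal tubule phosphate transporter Slc34a1 at 1474 to 1942 FPKM in the 6 libraries. Of the adrenal cortex, the neighbouring source of corticosteroids, 9 markers summed to 2.52 to 3.69 FPKM in knockout and 2.89 to 4.40 FPKM in wild-type libraries, and the steroid-synthesis enzymes Cyp11b1, Cyp11b2 and Cyp21a1 were listed at 0 in all 6. Nothing in the labels ties each sample to its own animal, and p-values then speak only of the spread among these 6 samples. In bulk tissue, fewer cells of a type and less RNA per cell cannot be told apart.

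FPKM are per length, so levels can be set side by side across genes. Klf9 stood highest, with a mean of 49.6 FPKM over the 6 libraries. Sgk1 (38.8), Fkbp5 (24.2), Tsc22d3 (20.0), Nr3c1 (14.5), Nr3c2 (2.68), Esr1 (2.64) and Zbtb16 (0.554) followed in that order. The ranges of neighbours in this order overlapped except at 2 steps. Nr3c1, whose lowest library had 11.5 FPKM, stood clear of Nr3c2, whose highest had 3.11 FPKM. Esr1, from 2.21 FPKM, stood clear of Zbtb16, up to 1.14 FPKM. Within a library Nr3c1 had 4.74 to 6.07 times the FPKM of Nr3c2 in knockout and 4.76 to 6.33 times in wild-type kidneys.

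None of the 8 genes differed between the genotypes beyond the spread of the libraries. Differences were tested with limma on log2(FPKM + 1) over the 12174 genes with a mean of at least 1 FPKM, with Benjamini-Hochberg adjustment and a threshold of 0.05. The filter kept 7 of the 8 genes and left out Zbtb16. By limma 0 of these 7 passed, against 0% of all tested genes. Hspa8, the deleted gene, did not pass either (limma adjusted p = 0.866), so the lack of a call does not show the lack of a difference. At an unadjusted p under 0.05 limma held 0 of the 7, against 629 of 12174 genes (5.17%). The knockout and wild-type values overlapped for all 8 genes, while they did not overlap for 10.6% of all tested genes (2.01% higher and 8.57% lower in knockout). An exact permutation test of 3 against 3 cannot give a p under 0.1, and it gave 0.3 to 0.9 for the 8 genes.

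**Figure D2:**
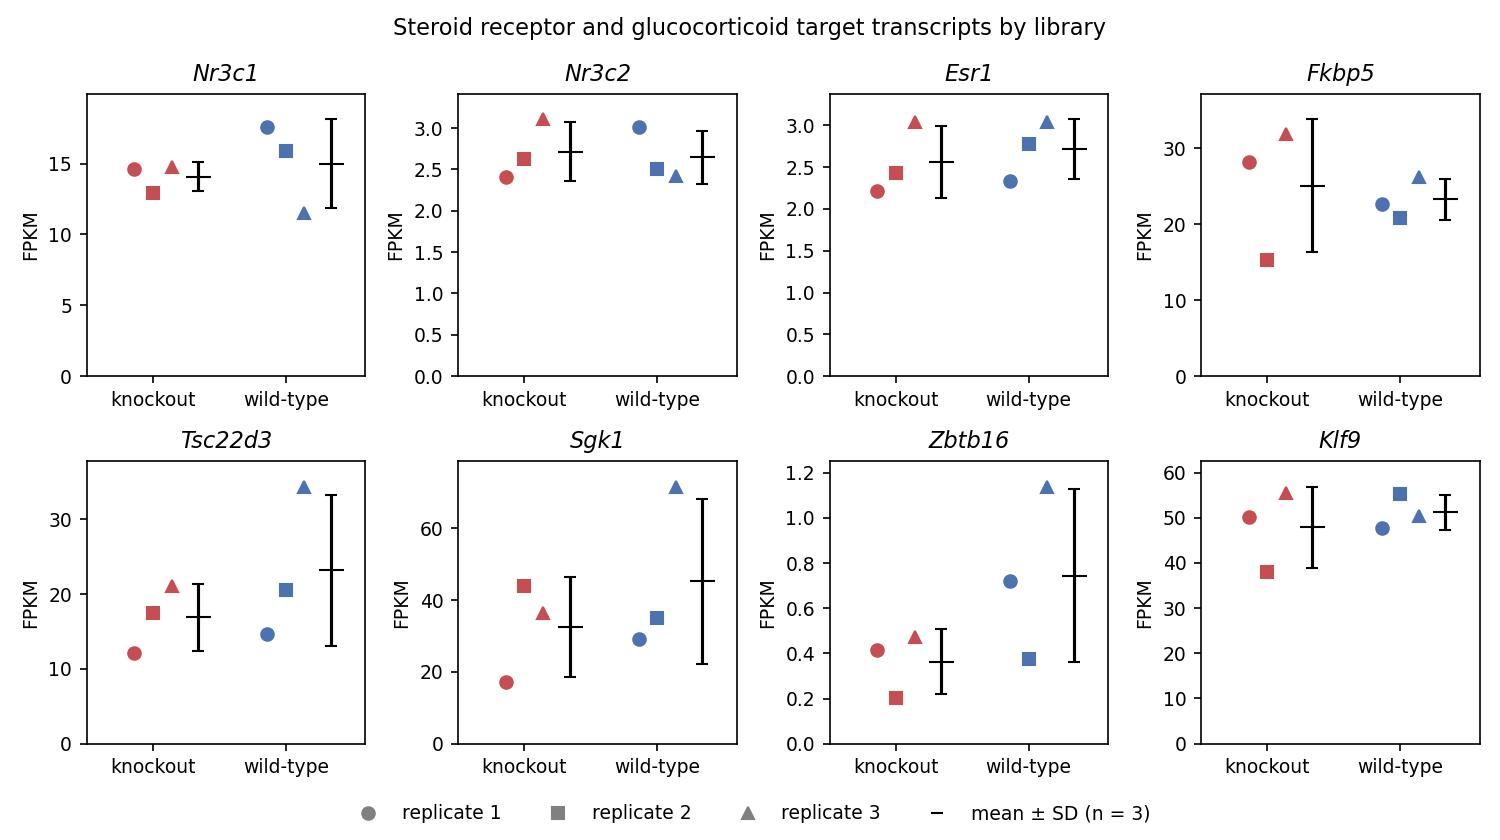
FPKM of the 8 genes in knockout (red, left) and wild-type (blue, right) libraries, with a symbol for each replicate number, and the mean ± SD of 3 libraries in black. The ranges of the knockout and wild-type values overlap in every panel, and wild-type replicate 3 stands alone at the top for Tsc22d3, Sgk1 and Zbtb16.

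The receptors ranged 1.29- to 1.53-fold over the 6 libraries. Nr3c1, which binds cortisol and corticosterone and is found in most cells, had 14.6, 12.9 and 14.7 FPKM in knockout replicates 1, 2 and 3, against 17.6, 15.9 and 11.5 FPKM in wild-type replicates 1, 2 and 3. All 3 knockout values lay within the wild-type range. Its means were 14.1 ± 1.00 FPKM in knockout and 15.0 ± 3.14 FPKM in wild-type kidneys (SD, n = 3 each), and the log2 fold change was -0.07 with a 95% confidence interval of -0.40 to 0.27. That interval allows a fold between 0.756 and 1.21.

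Nr3c2 (chromosome 8, 76898083 to 77245012, GRCm38.p6, whole gene), the aldosterone receptor of the distal nephron, had 2.40, 2.63 and 3.11 FPKM in knockout replicates 1, 2 and 3, against 3.01, 2.50 and 2.42 FPKM in wild-type replicates 1, 2 and 3. The highest values were those of knockout replicate 3 and wild-type replicate 1. Its log2 fold change was 0.03 (95% confidence interval -0.23 to 0.28; limma adjusted p = 0.998). Of the annotated Nr3c2 exon bases 3.82% are shared with the antisense gene Gm10649, and the sources used here do not say whether reads were counted by strand.

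Hsd11b2, the enzyme that shields this receptor from glucocorticoids, kept close to it. It had 17.9, 19.0 and 18.1 times the FPKM of Nr3c2 in knockout replicates 1, 2 and 3, against 19.2, 20.0 and 20.1 times in wild-type replicates 1, 2 and 3. The ratio ranged 1.12-fold over the 6 libraries, less than the 1.29-fold range of Nr3c2 itself. The knockout ratios all lay below the wild-type ratios, with an exact permutation p of 0.1, the smallest possible, and 0.6 after adjustment over the 6 ratios computed. Markers of the distal convoluted and connecting tubule were, on average, highest in the same pair of libraries as Nr3c2. The 7 genes of that list averaged -0.15, -0.16 and 0.28 in knockout replicates 1, 2 and 3, and 0.30, -0.12 and -0.15 in wild-type replicates 1, 2 and 3, on the log2 scale relative to the mean of the 6 libraries. The calcium-binding genes Pvalb and S100g departed from that average and were highest in wild-type replicate 3. The list summed to 1750, 1849 and 2074 FPKM in knockout replicates 1, 2 and 3, against 2248, 1842 and 2100 FPKM in wild-type replicates 1, 2 and 3. None of the 7 was at 0. On the same scale the 9 principal cell markers, Hsd11b2 among them, averaged -0.33, 0.20 and 0.08 in knockout replicates 1, 2 and 3. In wild-type replicates 1, 2 and 3 they averaged 0.02, -0.02 and 0.05. Their average was thus highest in knockout replicate 2, not in the pair of Nr3c2. The part of either list in the Nr3c2 values was not tested.

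Esr1 (chromosome 10, 4611989 to 5005633), the oestrogen receptor, had 2.21, 2.43 and 3.05 FPKM in knockout replicates 1, 2 and 3, against 2.34, 2.77 and 3.04 FPKM in wild-type replicates 1, 2 and 3. The groups covered nearly the same range. The log2 fold change was -0.06 (95% confidence interval -0.34 to 0.21).

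Fkbp5 (chromosome 17, 28398753 to 28486149), the feedback co-chaperone, varied more among the knockouts than among the controls. It had 28.2, 15.2 and 31.8 FPKM in knockout replicates 1, 2 and 3, against 22.7, 20.9 and 26.2 FPKM in wild-type replicates 1, 2 and 3. Each knockout value fell outside the wild-type range, replicates 1 and 3 above it and replicate 2 below it. The means were close, 25.1 ± 8.74 FPKM in knockout and 23.3 ± 2.70 FPKM in wild-type kidneys (SD, n = 3 each). The log2 fold change was 0.05 with a 95% confidence interval of -0.51 to 0.60, and it was 0.36 without knockout replicate 2. Whether the 2 spreads differ was not tested.

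The rival co-chaperone Fkbp4 did not share this pattern, at 115, 120 and 118 FPKM in knockout replicates 1, 2 and 3, against 124, 111 and 135 FPKM in wild-type replicates 1, 2 and 3. The ratio of Fkbp5 to Fkbp4 was 0.246, 0.127 and 0.270 in knockout replicates 1, 2 and 3, against 0.183, 0.187 and 0.194 in wild-type replicates 1, 2 and 3. The 3 wild-type ratios nearly coincided, and the knockout ratios lay on both sides of them (exact permutation p = 1). Knockout replicates 1 and 3 were also the libraries with most red cell RNA. The 6 red cell markers summed to 420, 77.6 and 553 FPKM in knockout replicates 1, 2 and 3, against 52.1, 58.6 and 59.8 FPKM in wild-type replicates 1, 2 and 3. The highest library was knockout replicate 3 for 5 of the 6 markers and wild-type replicate 1 for the other, none of the 6 was at 0, and their part in the Fkbp5 values was not tested.

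Klf9 (chromosome 19, 23141226 to 23168129), a transcription factor induced by glucocorticoids and thyroid hormone, had the narrowest range of the targets. It had 50.1, 38.1 and 55.6 FPKM in knockout replicates 1, 2 and 3, against 47.8, 55.4 and 50.5 FPKM in wild-type replicates 1, 2 and 3. Knockout replicate 2 was again the lowest library and knockout replicate 3 the highest. The log2 fold change was -0.11 (95% confidence interval -0.43 to 0.22), and it was 0.05 without knockout replicate 2.

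Sgk1 (chromosome 10, 21882184 to 21999903), the kinase that keeps the epithelial sodium channel at the cell surface, varied most among the 7 tested genes. It had 17.1, 44.0 and 36.3 FPKM in knockout replicates 1, 2 and 3, against 29.0, 35.1 and 71.6 FPKM in wild-type replicates 1, 2 and 3. Knockout replicate 1 and wild-type replicate 3 were the extremes and differed 4.18-fold, while the other 4 libraries lay between 29.0 and 44.0 FPKM. The means were 32.5 ± 13.8 FPKM in knockout and 45.2 ± 23.0 FPKM in wild-type kidneys (SD, n = 3 each). The log2 fold change was -0.46 with a 95% confidence interval of -1.37 to 0.46 and a limma adjusted p of 0.998. Leaving out wild-type replicate 3 made it -0.08, and leaving out knockout replicate 1 made it -0.07.

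Tsc22d3 (chromosome X, 140539528 to 140600522) encodes GILZ, a leucine zipper protein that mediates anti-inflammatory effects of glucocorticoids. It had 12.1, 17.4 and 21.1 FPKM in knockout replicates 1, 2 and 3, against 14.7, 20.5 and 34.3 FPKM in wild-type replicates 1, 2 and 3. As with Sgk1, knockout replicate 1 was lowest, wild-type replicate 1 next and wild-type replicate 3 highest. Its log2 fold change was -0.39 (95% confidence interval -1.06 to 0.29; limma adjusted p = 0.998), and it became -0.07 on leaving out wild-type replicate 3 and -0.18 on leaving out knockout replicate 1.

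Zbtb16 (chromosome 9, 48651797 to 48836225), a transcription factor strongly induced by glucocorticoids in several tissues, was low throughout. It had 0.417, 0.200 and 0.474 FPKM in knockout replicates 1, 2 and 3, against 0.720, 0.374 and 1.14 FPKM in wild-type replicates 1, 2 and 3. Knockout replicate 2 was lowest, and wild-type replicate 2 lay below knockout replicates 1 and 3. The difference in mean log2(FPKM + 1) was -0.34, with an exact permutation p of 0.3. At this level a pseudocount of 1 compresses the difference, which was -0.81 with 0.1.

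**Figure D3:**
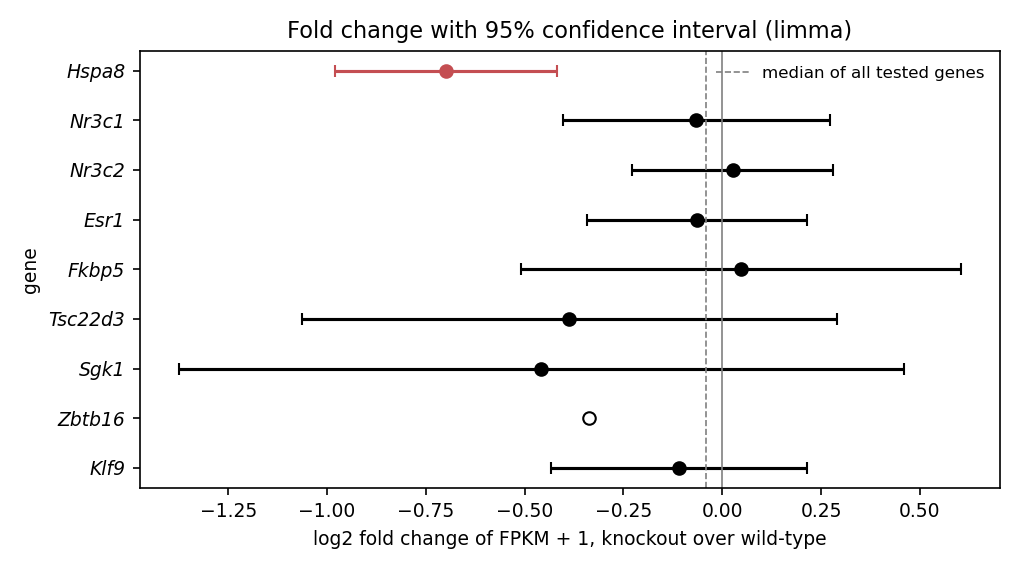
Log2 fold change of FPKM + 1 (knockout over wild-type, x axis) of Hspa8 (red) and the 8 genes, with 95% confidence intervals from limma. Zbtb16, an open circle, was under the filter and has no interval, and the intervals of the other 7 genes all include 0.

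The 5 targets did not follow a single order over the libraries. Fkbp5 and Klf9 were highest in knockout replicate 3, and Sgk1, Tsc22d3 and Zbtb16 in wild-type replicate 3. All 5 had their lowest value in a knockout library, Sgk1 and Tsc22d3 in replicate 1 and Fkbp5, Klf9 and Zbtb16 in replicate 2. In knockout replicate 2 Sgk1 was 0.30 above and Fkbp5 0.60 below its own mean on the log2 scale, while in knockout replicate 1 Sgk1 was 1.01 below and Fkbp5 0.25 above. The ratio of Sgk1 to Fkbp5 was 0.606, 2.89 and 1.14 in knockout replicates 1, 2 and 3, against 1.28, 1.68 and 2.73 in wild-type replicates 1, 2 and 3. It ranged 4.77-fold over the 6 libraries, whereas the ratio of Sgk1 to Tsc22d3 ranged 1.79-fold. Of the receptors, Nr3c1 was lowest where Sgk1 was highest, in wild-type replicate 3, while Esr1 was lowest in knockout replicate 1, as Sgk1 and Tsc22d3 were, and highest in knockout replicate 3 (3.05 FPKM) and wild-type replicate 3 (3.04 FPKM).

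**Figure D4:**
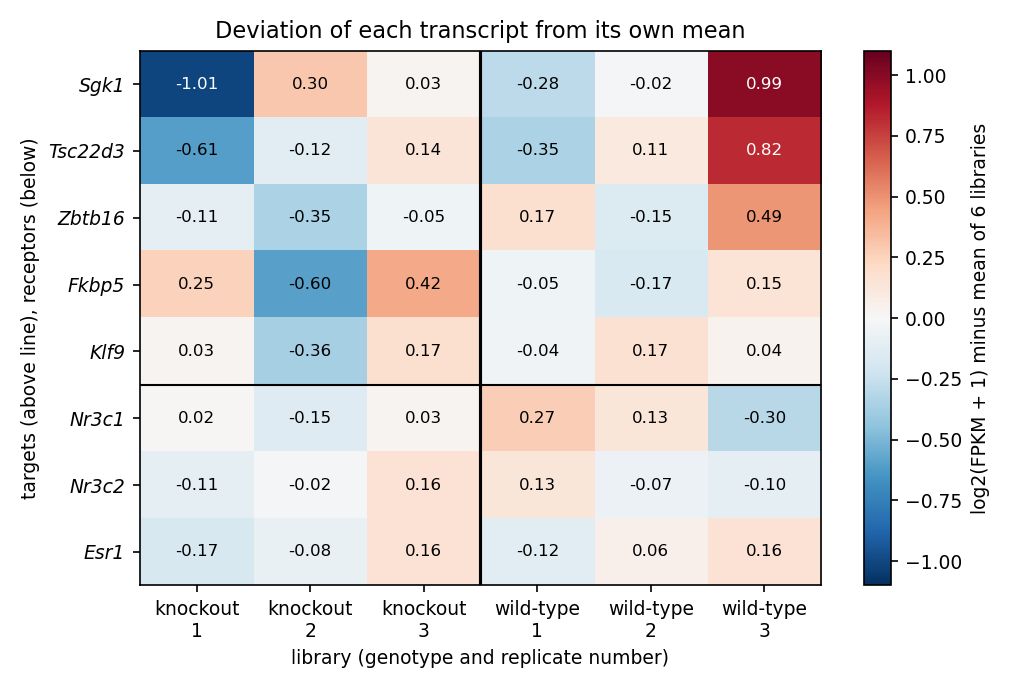
Deviation of log2(FPKM + 1) from each gene's mean over the 6 libraries, by gene (rows, targets above the line and receptors below) and library (columns, knockout left of the line). Sgk1 and Tsc22d3 run from -1.01 and -0.61 in knockout replicate 1 to 0.99 and 0.82 in wild-type replicate 3, while Fkbp5 and Klf9 are lowest, at -0.60 and -0.36, in knockout replicate 2.

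The genes whose profiles over the 6 libraries lay nearest to those of the 3 most variable targets were sought among 11388 genes, by the root mean square difference of mean-centred log2(FPKM + 1). Nearest to Sgk1 were Id1, an inhibitor of helix-loop-helix factors (0.179), the small GTPase Rhob (0.222) and Rgs2, a regulator of G protein signalling (0.227), against a median of 0.596 over all these genes. Nearest to Tsc22d3 were the chemokine receptor Cxcr4 (0.0663), the cell cycle inhibitor Cdkn1a (0.0874) and again Id1 (0.0983), against a median of 0.456. Nearest to Fkbp5 were the phosphatidate phosphatase Lpin1 (0.150) and Cep85 (0.164), against a median of 0.368. Rhob, Cdkn1a and Lpin1 are themselves on the list of further glucocorticoid targets given below, which holds 27 of the 12174 tested genes. That list was chosen with earlier results of these data known. In FPKM without a pseudocount Cdkn1a ranged 3.64-fold over the libraries and Tsc22d3 2.83-fold. Cxcr4 was low, from 0.962 FPKM in knockout replicate 1 to 3.77 FPKM in wild-type replicate 3. At such levels a pseudocount of 1 compresses differences, so its nearness depends on that setting. Id1, for example, had 12.6, 22.7 and 25.2 FPKM in knockout replicates 1, 2 and 3, against 18.5, 24.8 and 41.1 FPKM in wild-type replicates 1, 2 and 3. Lpin1 had 17.2, 12.5 and 22.1 FPKM in knockout replicates 1, 2 and 3, against 14.8, 14.5 and 15.5 FPKM in wild-type replicates 1, 2 and 3.

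Immediate early genes, which respond within minutes to stimuli and to handling of tissue, were low in the same pair of libraries where Sgk1 and Tsc22d3 were lowest. The 11 genes summed to 50.6, 265 and 271 FPKM in knockout replicates 1, 2 and 3, against 50.2, 180 and 348 FPKM in wild-type replicates 1, 2 and 3. Of the 11, 9 were highest in wild-type replicate 3, and each was lowest in knockout replicate 1 (4 genes) or wild-type replicate 1 (7 genes). Fosb had 0.0591, 6.67 and 5.41 FPKM in knockout replicates 1, 2 and 3, against 0.0855, 1.21 and 4.22 FPKM in wild-type replicates 1, 2 and 3. Egr1, another of these transcription factors, had 6.11, 40.1 and 37.7 FPKM in knockout replicates 1, 2 and 3, against 4.13, 29.8 and 43.2 FPKM in wild-type replicates 1, 2 and 3. The list had 7 of 10 tested genes above 0, against 4278 of all 12174. Its median log2 fold change was 0.07, with 0 called by limma, and the median ran from -0.70 to 0.77 with 1 library left out. With library sums, medians or quantiles equalised 9, 10 and 8 of the 10 lay above 0, against 6063, 6514 and 6184 of all 12174. Without replicate 1 of both groups, an alternative added after seeing the data, the log2 fold change was -0.32 for Sgk1 and -0.45 for Tsc22d3. Endothelial markers were also highest in wild-type replicate 3, for all 9 of the list, and their sum was 84.4 to 104 FPKM in knockout and 107 to 146 FPKM in wild-type kidneys, with none at 0. The 7 adipocyte markers likewise were all highest there, at a sum of 64.4 to 70.7 FPKM in knockout and 75.8 to 129 FPKM in wild-type kidneys. The part of these lists in the values of Sgk1 and Tsc22d3 was not tested.

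Further glucocorticoid targets, 30 genes, held none called by limma, which does not show that the genotypes are alike. Of the 27 tested, 12 lay above 0 and 15 below (55.6% below, against 64.9% of all tested genes), and the median log2 fold change was -0.07, against -0.04 for all tested genes. By limma 0 rose and 0 fell, and 1 of the 27 did not overlap between the groups, higher in knockout as were 2.01% of all genes. That gene was Pdk4, which encodes an inhibitory kinase of pyruvate dehydrogenase, with 19.5, 24.8 and 36.6 FPKM in knockout replicates 1, 2 and 3, against 4.53, 19.1 and 15.2 FPKM in wild-type replicates 1, 2 and 3 (log2 fold change 1.15, SE 0.449, limma adjusted p = 0.947). Without wild-type replicate 1, its lowest library, the log2 fold change was 0.59. Tat, a liver enzyme and classical target, was listed at 0 in all 6 libraries. Of the 29 others 18 were highest in wild-type replicate 3 and 7 in knockout replicate 3, while 11 were lowest in wild-type replicate 1 and 9 in knockout replicate 1. Wild-type replicate 3 was also highest for all 9 endothelial and all 7 stromal and mural markers, but for 0 of the 7 proximal tubule markers. For no list is the share of all tested genes highest or lowest in a library given here. Per1, a clock gene that glucocorticoids induce, was chosen after its values were seen. It had 3.90, 5.88 and 11.6 FPKM in knockout replicates 1, 2 and 3, against 5.35, 8.69 and 15.0 FPKM in wild-type replicates 1, 2 and 3. With 1 library left out the median of the list ran from -0.31 (wild-type replicate 1 left out) to 0.13 (wild-type replicate 3 left out).

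Sodium transport genes that respond to aldosterone, 14 of 15 tested, held 7 above 0 and 7 below, against 64.9% of all tested genes below. Their median log2 fold change was 0.03, and it ran from -0.029 to 0.097 with 1 library left out. By limma 0 passed and the groups overlapped for all 14. With library sums, library medians or quantiles equalised 9 were above 0 and 5 below, as Scnn1b and Nedd4l changed sign. Of all tested genes 50.2%, 46.5% and 49.2% lay below 0 at these scalings. The smallest p-values were those of Ndrg2 and Stk39. Ndrg2, a gene that aldosterone induces, had 42.8 ± 5.19 FPKM in knockout and 36.1 ± 1.07 FPKM in wild-type kidneys (SD, n = 3 each; limma adjusted p = 0.971). Stk39, which encodes the kinase SPAK that activates sodium chloride cotransport, had 10.1 ± 2.18 FPKM in knockout and 8.13 ± 0.505 FPKM in wild-type kidneys (SD, n = 3 each; limma adjusted p = 0.973). Genes of glucocorticoid metabolism and transport, 8 of 9 tested, held 3 above 0 and 5 below, against 64.9% of all tested genes below. The median was -0.08, and limma called 0. That median was 0.015 without knockout replicate 1 and -0.14 without wild-type replicate 3. Srd5a1, a steroid reductase, had 9.25 ± 1.43 FPKM in knockout and 10.2 ± 1.20 FPKM in wild-type kidneys (SD, n = 3 each). Abcb1b, a pump that can export glucocorticoids, had 2.02 ± 0.443 FPKM in knockout and 1.74 ± 0.325 FPKM in wild-type kidneys (SD, n = 3 each).

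The folding machinery of the receptors lay lower in the knockout, without a call by limma. All 15 genes of the relay were below 0, against 64.9% of all tested genes, with a median log2 fold change of -0.17, and 6 did not overlap between the groups, against 8.57% of all genes lower and apart. With library sums or library medians equalised Ppp5c and St13 lay above 0, and with quantiles equalised Ppp5c did. All tested genes then lay below 0 in 50.2% (sums), 46.5% (medians) and 49.2% (quantiles). One of the 15 is the deleted gene itself. Dnajb1, an HSP40 partner of HSC70, had 10.1, 15.3 and 15.5 FPKM in knockout replicates 1, 2 and 3, against 21.0, 19.9 and 43.5 FPKM in wild-type replicates 1, 2 and 3 (log2 fold change -0.93, SE 0.291, limma adjusted p = 0.914). Dnaja1, another HSP40 partner, had 91.5 ± 11.2 FPKM in knockout and 123 ± 20.8 FPKM in wild-type kidneys (SD, n = 3 each; limma adjusted p = 0.931). Ppid, which encodes the HSP90 cyclophilin CYP40, had 17.2 ± 0.560 FPKM in knockout and 20.1 ± 1.12 FPKM in wild-type kidneys (SD, n = 3 each; limma adjusted p = 0.945). Without wild-type replicate 3 Dnajb1 stood at -0.58. Of the 15 genes 13 were highest in wild-type replicate 3. Without it 12 were below 0, against 66.6% of all tested genes, and the median was -0.10. Markers of some other cell types were lower too, with all 9 endothelial genes (median log2 fold change -0.35, 6 not overlapping), all 7 stromal and mural genes (-0.32) and all 5 podocyte genes (-0.30) below 0. Proximal tubule markers (4 above 0, 3 below) and thick ascending limb markers (3 above, 2 below) were mixed, and all 5 tested red cell markers lay above 0. Without wild-type replicate 3 the stromal and mural genes Acta2 and Tagln lay above 0, and the red cell marker Slc4a1 lay below. The endothelial and podocyte genes all stayed below 0 in that setting. The stromal and mural markers summed to 53.4 to 65.8 FPKM in knockout and 61.8 to 101 FPKM in wild-type kidneys, and the podocyte markers to 55.4 to 80.6 FPKM in knockout and 71.4 to 102 FPKM in wild-type kidneys, with none at 0. Their part in the levels of the folding genes was not tested.

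Receptor coregulators, 10 genes, were level, with 5 above 0 and 5 below, against 64.9% of all tested genes below. Their median log2 fold change was -0.03. Without wild-type replicate 3 all 10 lay below 0, against 66.6% of all tested genes, with a median of -0.07. Clock genes matter here because corticosterone follows the day, and the sources used here do not give the hour of collection. Of 14 clock genes 6 lay above 0 and 8 below, but 7 and 7 with library sums or medians equalised and 8 and 6 with quantiles equalised. The share of all tested genes below 0 was 64.9%, but 50.2%, 46.5% and 49.2% with library sums, medians or quantiles equalised. The groups of 1 of the 14 did not overlap, higher in knockout as were 2.01% of all genes. It was Cry2, a repressor of the clock, at 3.86 ± 0.746 FPKM in knockout and 2.62 ± 0.371 FPKM in wild-type kidneys (SD, n = 3 each; limma adjusted p = 0.914). Dbp, a clock output gene chosen after its values were seen, had 22.5, 24.9 and 21.0 FPKM in knockout replicates 1, 2 and 3, against 7.91, 29.5 and 25.0 FPKM in wild-type replicates 1, 2 and 3. Arntl, the activator that runs opposite to Dbp in phase, had 3.31, 3.76 and 3.20 FPKM in knockout replicates 1, 2 and 3, against 6.14, 2.82 and 3.51 FPKM in wild-type replicates 1, 2 and 3. Wild-type replicate 1 thus stood apart from the other 5 libraries in both, in opposite directions. It was also the wild-type library with the lowest Sgk1, Tsc22d3 and Klf9, while Fkbp5 and Zbtb16 were lowest among wild-type libraries in replicate 2. Knockout replicate 1 was lower still in Sgk1 (17.1 FPKM) and Tsc22d3 (12.1 FPKM). The part of the clock in those values was not tested.

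**Figure D5:**
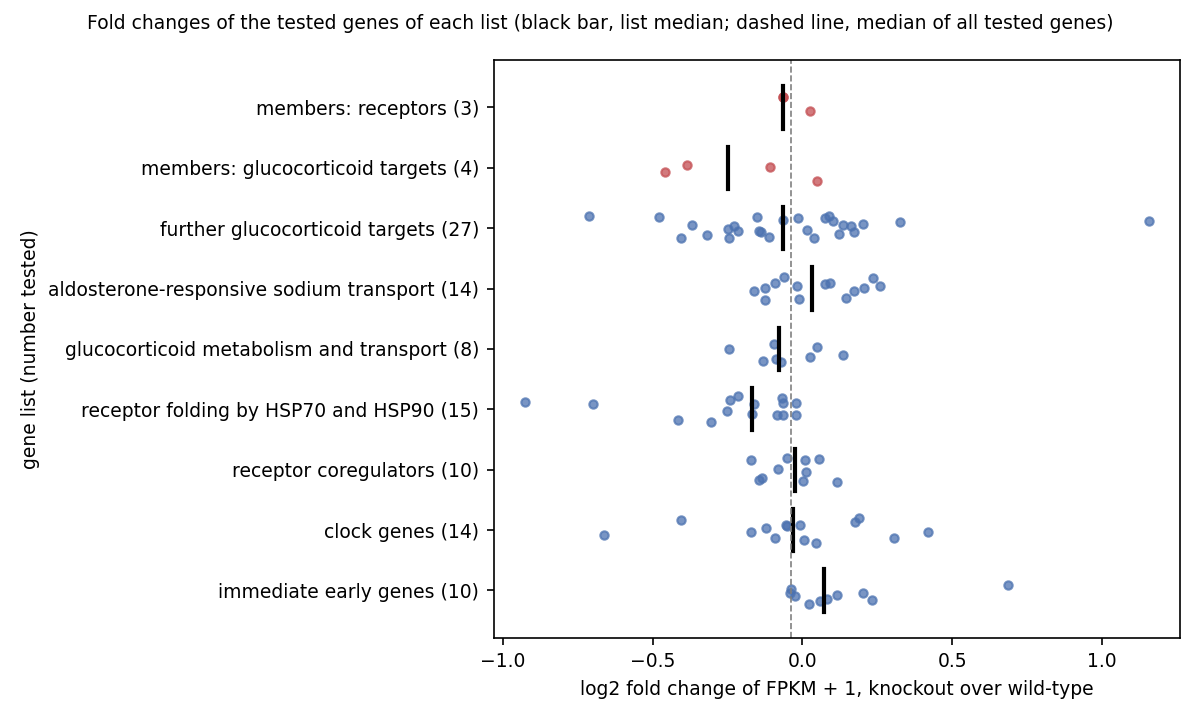
Log2 fold change of FPKM + 1 (knockout over wild-type, x axis) for each tested gene of 9 lists, with the number tested in brackets, list medians as black bars and the median of all tested genes as a dashed line. The receptors and targets (red) lie between -0.46 and 0.05, and the 15 genes of receptor folding all lie below 0, though 1 or 2 of them lie above it with library sums, medians or quantiles equalised.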

How the data were processed

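RNA of 6 kidney samples was extracted with an RNeasy kit and made into libraries with a SMARTer mRNA kit, per the labels' protocols. The deposited values are FPKM, which the authors had divided by transcript length and mapped total, in 1 table. Genome builds are GRCm38 and mm10, names of 1 assembly, per the submitters' processing notes. The sources used here do not give the aligner, quantifier or annotation. Depth is unknown: ratios of values under 0.1 FPKM between libraries showed no step, as no bin of 0.005 (log2) held over 0.762% of genes in any pair.

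Samples were grouped by title and genotype. Knockout columns carry A8 with the replicate number and were matched to the HSPA8KO titles of that number. No 2 libraries shared an identical value above 0. The test was limma's (version 3.58.1, R 4.3.3), on log2(FPKM + 1) (group as the only term, mean-trended empirical Bayes variance, two-sided, 12174 genes with a mean of at least 1 FPKM, Benjamini-Hochberg adjustment), and single genes were tested by exact two-sided permutation (scipy 1.17.1). A fold change on this scale understates that of low genes. The script was first tested on data with known changes. Gene positions, starts and promoter sequences are RefSeq's (GRCm38.p6), and exon overlaps are from GENCODE M21.

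The members and lists were chosen with earlier results of these data known. Named from each further list are genes that passed, else up to 4 with the smallest p among those whose groups did not overlap, else the 2 with the smallest p, besides Hspa8 and the 3 nearest profiles of the 3 widest-ranging targets. Of the genes so named, 3 are not reported here. Fkbp4, Hsd11b2, Per1, Dbp, Arntl, Slc34a1, the adrenal genes and Bcl6 were chosen for their role or after their values were seen. Alternatives were other pseudocounts (0.1, 0.5), filters (none, 5 FPKM), scalings and variance models, the replicate number as a block, and libraries left out.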

Additional observations from a re-analysis of the deposited data

How the results depend on the processing

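Of the 7 tested genes none was called under any alternative, with 18 alternatives for 5 of them and 17 for Nr3c2 and Esr1, which are under the filter of 5 FPKM. Sgk1 and Tsc22d3 stayed below 0 in all 18. With 1 library left out, log2 fold changes ran from -0.23 to 0.053 for Nr3c1, from -0.049 to 0.097 for Nr3c2, from -0.16 to 0.0067 for Esr1, from -0.15 to 0.36 for Fkbp5, from -0.22 to 0.045 for Klf9, from -0.72 to -0.07 for Sgk1, from -0.66 to -0.07 for Tsc22d3 and from -0.50 to -0.18 for Zbtb16. Signs also changed without wild-type 3 and knockout 2 together (Nr3c2 -0.0040, Esr1 0.023, Klf9 0.036). They changed as well without replicate 1 of both groups (Nr3c1 0.028, Fkbp5 -0.080), an alternative chosen after seeing the data. The cause was not tested. Over all genes 0 were called by limma, and 0 to 5 with 1 library left out. The 5 were globin genes, called without knockout replicate 2 and also, again 5, without wild-type 3 and knockout 2 together. The median of the receptors ran from -0.098 to 0.053 with 1 library left out, and that of the targets from -0.41 to -0.08. Deviations of same-numbered samples correlated at 0.31, -0.21 and -0.32 for replicates 1, 2 and 3. Those of differently numbered samples ran from -0.49 (knockout 2 with wild-type 1) to 0.55 (knockout 2 with wild-type 3). Correlations over so few samples cannot settle whether the numbers pair them. The replicate block gave 0 calls among all genes and among the 7, with 417 genes at an unadjusted p under 0.05 against 629 without it. With the block the SE fell from 0.294 to 0.135 for Tsc22d3, from 0.398 to 0.220 for Sgk1 and from 0.242 to 0.162 for Fkbp5. It rose from 0.110 to 0.138 for Nr3c2 and from 0.141 to 0.155 for Klf9, and hardly moved for Nr3c1 and Esr1. Unknown depth limits Zbtb16 most.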

Other observations

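Bcl6, a transcriptional repressor on the list of further glucocorticoid targets, fell into separate high and low levels that crossed the genotypes. It had 5.35, 27.0 and 6.30 FPKM in knockout replicates 1, 2 and 3, against 29.5, 5.14 and 29.5 FPKM in wild-type replicates 1, 2 and 3, with no library between 6.30 and 27.0 FPKM. Neither Sgk1 nor Fkbp5 followed that order.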
